A study of Mus musculus with 8 samples.

Results

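Retinoic acid is made from vitamin A and acts as a signal over short distances in the embryo. The enzyme encoded by *Aldh1a2* makes it from retinaldehyde in the mesoderm beside the neural tube, and the enzymes of the *Cyp26* family break it down in the tissues next to that source. It is carried inside cells by the binding proteins encoded by *Crabp1* and *Crabp2*, and it acts through the nuclear receptors encoded by *Rara*, *Rarb* and *Rarg*, which bind DNA as partners of the RXR receptors. At embryonic day 8.5 the pathway is known for its part in the patterning of the hindbrain, somites, heart and limb field. The genes described here are *Aldh1a2*, *Cyp26a1*, *Cyp26b1*, *Cyp26c1*, *Rara*, *Rarb*, *Rarg*, *Crabp1* and *Crabp2*. They were taken as a fixed list of names, and every array probe whose RefSeq transcript belongs to one of them was used. This gave 11 of the 55681 probes on the array and 9 of its 20660 named genes.

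The embryos were all wild type for *Eed*, which encodes a subunit of Polycomb repressive complex PRC2, an enzyme complex that places a repressive methyl mark on histones. They differed in the genotype of the father. Of the 8 embryos, 4 were sired by wild-type males (*Eed* wt/wt, the WT father group) and 4 by males heterozygous for the hypomorphic allele Eedl7Rn5-1989SB (*Eed* hypo/wt, the HET father group). All mothers were wild type, the background was C57bl6/129 in both groups, and each embryo was collected at E8.5 and hybridised alone to a one-colour Agilent array. Each group held 2 female and 2 male embryos. In the WT father group replicates 1 and 3 were female, and in the HET father group replicates 2 and 4 were female. Sperm of a heterozygous male form in the presence of a normal *Eed* allele, and the comparison asks whether the father's genotype alone is seen in offspring that did not inherit the mutation.

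In its breeding plan the study describes fewer wild-type males, and also fewer heterozygous males, than the 4 embryos of each group. A supplementary legend gives 4 per genotype for this comparison, which can be read as males or as offspring. Embryos within a group may therefore share a sire. The sources do not say which embryo came from which sire or litter. The first part of the embryo's code was the same in 3 of the 4 WT father embryos and differed between all 4 HET father embryos. P values here measure the spread between these embryos. The 2 groups were hybridised on different slides, so father and slide cannot be told apart.

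On each array 29203 to 39530 probes were well above background. WT father replicate 1 and HET father replicate 3 stood apart with 39530 and 38878 such probes, where the other 6 arrays had 29203 to 35486, and HET father replicate 4 had a local background of 133 intensity units where the other HET father arrays had 30 to 32 and the WT father arrays 50 to 51. Markers of the embryo proper, such as the somite gene *Meox1* and the neural gene *Sox2*, were well above background on all 8 arrays for 12 of 12 genes. Their summed level, in units of each array's 75th percentile, was 39.6 to 49.1 in the WT father group and 39.4 to 45.6 in the HET father group. Yolk sac endoderm markers summed to 591 to 813 and 724 to 744, and primitive erythroid markers to 555 to 1248 and 851 to 1074. WT father replicate 4 held the lowest of both sums, where the other WT father embryos had 745 to 813 and 936 to 1248. It also held the highest embryo proper sum, 49.1. Of 7 decidua and trophoblast markers on the array, 4 were well above background on all 8 arrays and *Tpbpa* on none. They summed to 17.0 to 48.9 and 16.2 to 44.9. Most of that sum came from *Gcm1*, at a log2 signal of 3.46 to 5.39 with WT fathers and 3.74 to 5.39 with HET fathers. The sums therefore say little about the other markers. Among these markers the decidual prolactin gene *Prl8a2* did not overlap between the groups. It had 1.80 to 3.14 on the log2 scale with WT fathers and -2.38 to 0.97 with HET fathers. Of all tested probes 1.61% did not overlap in that direction. *Tpbpa*, not tested, did not overlap in the other direction. Of 6 such markers tested, 5 were lower with HET fathers, with a median difference of -0.51, and *Prl8a2* (-2.46) and the steroid enzyme gene *Cyp11a1* (-1.71, well above background on 6 arrays) were lower at an unadjusted limma p under 0.05, each with an adjusted p of 1.00. Lower values at that unadjusted p were found for 2.49% of all tested probes. The part of other tissues in the results below was not tested. In RNA from whole embryos, fewer cells of a type and less RNA per cell cannot be told apart.

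None of the 9 retinoic acid genes passed the test between the father groups. All 11 probes were well above background on all 8 arrays and were tested, and 0 of 11 were called at an adjusted p under 0.01 and at least 2-fold, where the call rate over all 33093 tested probes was 0%. At an unadjusted limma p under 0.05 there were also 0 of 11, against 4.34% of all tested probes. The groups overlapped for all 11, where 3.15% of all tested probes did not overlap (1.54% higher and 1.61% lower with HET fathers). Every adjusted p was 1.00 (limma, Benjamini-Hochberg over all tested probes), with the smallest unadjusted p at 0.0954. With arrays scaled to their 75th percentile, each 95% interval of the difference stayed within 2-fold in both directions. The lowest bound was -0.77 and the highest 0.79 on the log2 scale. Intervals that narrow were found for 80.2% of all tested probes. For 8 of the 11 the interval also stayed within 1.5-fold. These bounds hold for that scaling. *Crabp1* had a difference of 0.28 at an unadjusted limma p of 0.101 with it. With arrays scaled to their median it had 0.19 at 0.647. Whether the intervals stay within 2-fold with median scaling is not shown here.

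**Figure D1:**
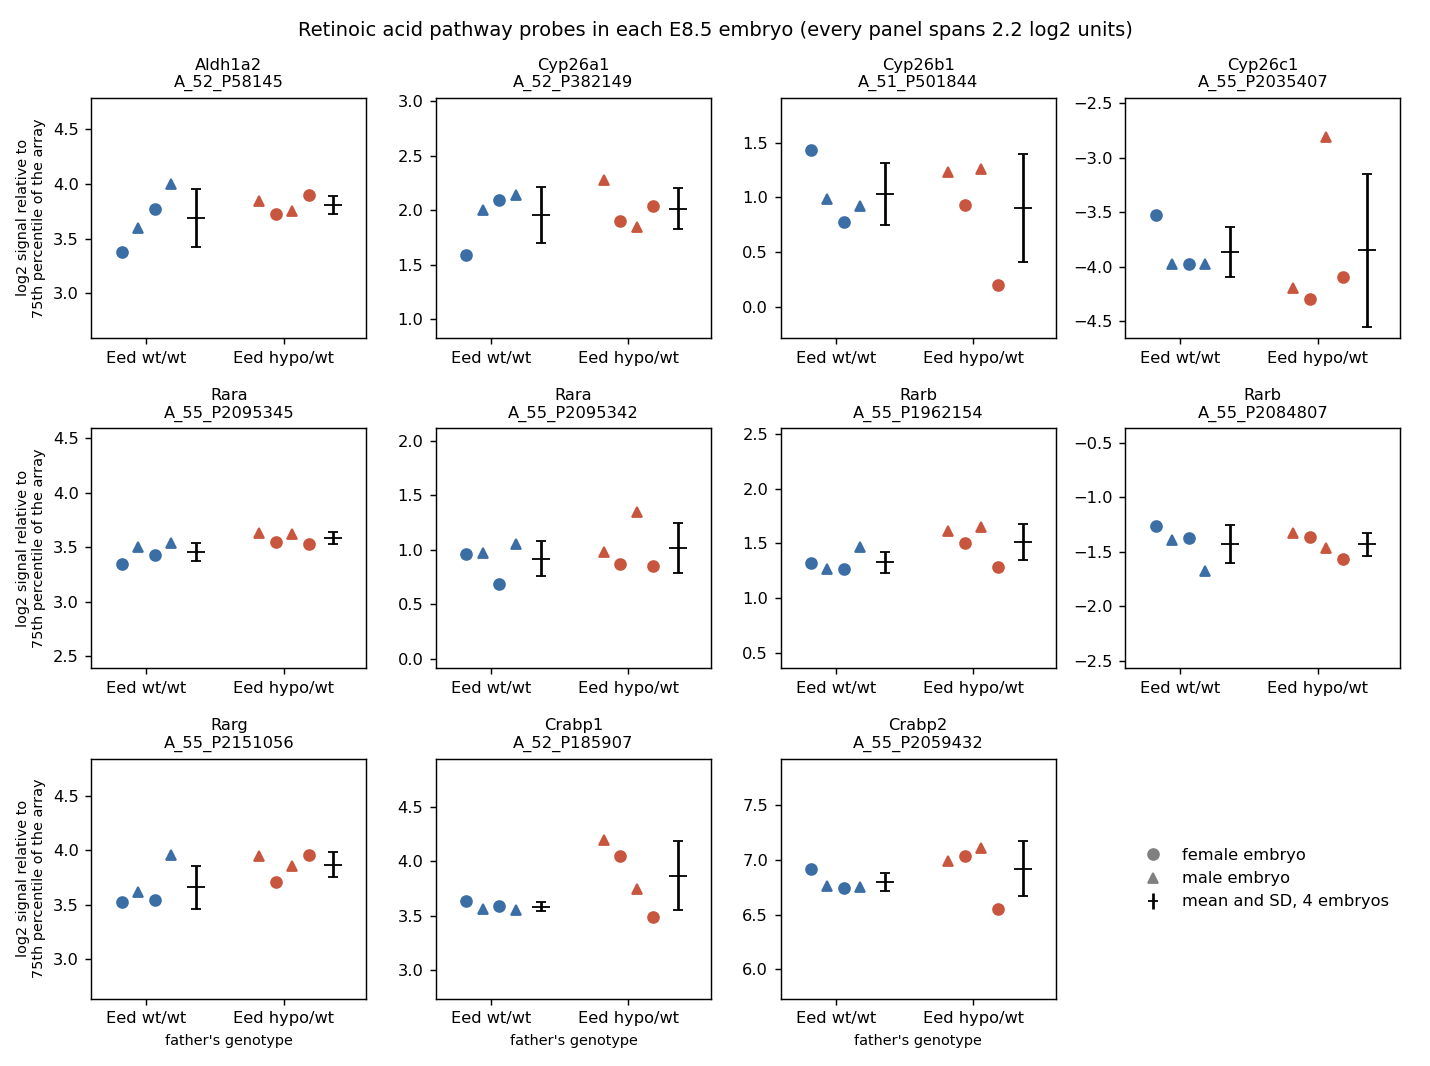
Each panel is 1 probe of a retinoic acid gene. The vertical axis is the log2 signal relative to the 75th percentile of the array, each point is 1 embryo (circles female, triangles male) in replicate order, and the bar is the mean and SD of 4 embryos. The groups overlap in all 11 panels, and *Cyp26b1* and *Cyp26c1* have the widest spread.

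Values below are log2 signals relative to the 75th percentile of each array, given for replicates 1 to 4 of each group. They compare embryos for 1 probe and do not compare one gene's level with another's. Differences are HET father minus WT father, also on the log2 scale, so that a difference of 0 is no change.

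*Aldh1a2* encodes retinaldehyde dehydrogenase, the enzyme that makes almost all retinoic acid at this stage. It had 3.38, 3.60, 3.77 and 4.00 in the WT father embryos and 3.84, 3.72, 3.75 and 3.90 in the HET father embryos. All HET father values lay inside the range of the WT father values, whose replicate 1 was the lowest of the 8 and replicate 4 the highest. The means were 3.69 ± 0.27 and 3.80 ± 0.08 (SD, n = 4 each). The difference was 0.12, with a 95% interval of -0.20 to 0.43 and an unadjusted limma p of 0.411.

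The *Cyp26* enzymes oxidise retinoic acid and so set the borders of its action. *Cyp26a1*, expressed early in the head and later in the tail bud, had 1.59, 2.00, 2.10 and 2.14 with WT fathers and 2.27, 1.90, 1.85 and 2.04 with HET fathers. WT father replicate 1 was again the lowest, and HET father replicate 1 the highest. The difference was 0.06 (-0.30 to 0.41), and it turned to -0.066 without WT father replicate 1 and to -0.028 without HET father replicate 1.

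*Cyp26b1*, known for its expression in hindbrain and limb, had 1.43, 0.99, 0.77 and 0.92 with WT fathers and 1.23, 0.93, 1.26 and 0.19 with HET fathers. One embryo of each group was at an end of the range, WT father replicate 1 at the top and HET father replicate 4 well below the other 7. The difference of -0.13 had an interval of -0.74 to 0.48 and became 0.11 without HET father replicate 4 and 0.0081 without WT father replicate 1. The pooled SD within groups was 0.404, larger than that of 74.5% of all tested probes.

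*Cyp26c1*, the third enzyme, is known for its expression in the hindbrain and anterior head mesenchyme. Its probe had -3.52, -3.98, -3.97 and -3.98 with WT fathers and -4.20, -4.30, -2.81 and -4.09 with HET fathers. The 2 embryos that stood above the rest, WT father replicate 1 and HET father replicate 3, were the 2 whose arrays had the most probes above background. These 2 arrays also had the highest median log2 intensity, 6.13 and 6.79 where the others had 5.64 to 5.90. Their 75th percentiles were the lowest, 9.65 and 9.69 where the others had 9.84 to 10.09. Whether array signal had a part in the *Cyp26c1* values of these embryos was not tested. The difference was 0.01 (-0.77 to 0.79), the widest interval of the 11. Without HET father replicate 3 it was -0.33 with an unadjusted limma p of 0.0467 and an adjusted p of 0.529. In that fit 3115 of all 33093 tested probes were at an unadjusted p under 0.05, where 1436 were with all embryos. Without both of these embryos, a choice made after seeing the data, the *Cyp26c1* difference was -0.22. Its unadjusted limma p was then 0.0355 and its adjusted p 0.678, and 2355 of all tested probes were under 0.05. With quantile normalization and all embryos kept, the difference was -0.059 at an unadjusted limma p of 0.601.

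**Figure D2:**
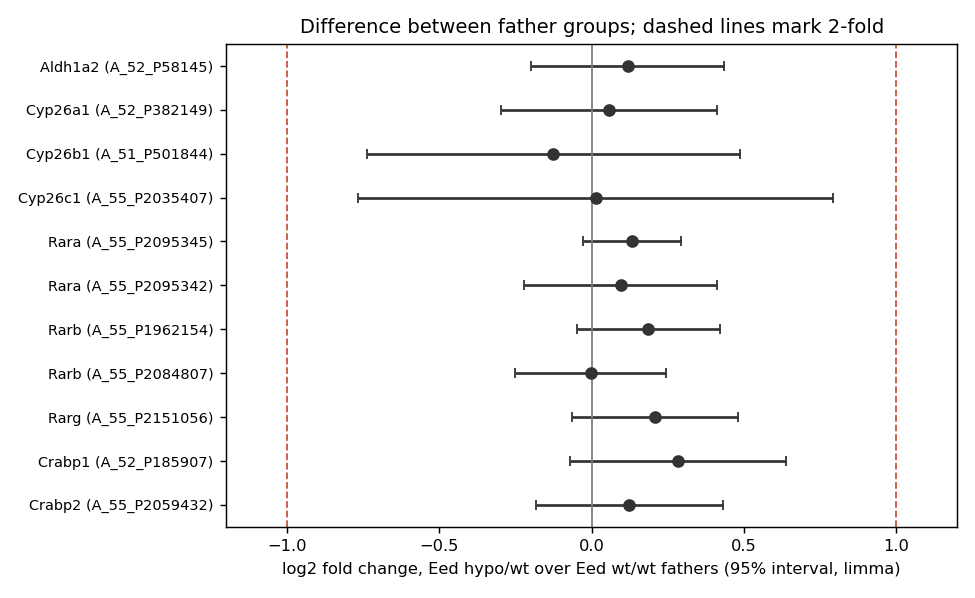
Difference between the father groups for each of the 11 probes, on a log2 axis. Points are HET father minus WT father, bars are 95% intervals from limma over 8 embryos, and dashed lines mark 2-fold. Every bar crosses 0 and none reaches a dashed line, with the widest for *Cyp26c1* (-0.77 to 0.79) and the narrowest for the brighter *Rara* probe (-0.03 to 0.29).

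*Rara*, *Rarb* and *Rarg* encode the receptors. They sit at response elements as partners of RXR, where they recruit corepressors without the ligand and coactivators with it. The commonest response element is a direct repeat of a short half-site with a 5-base spacer. Windows from 250 bases before to 50 bases after the start site were taken from RefSeq (GRCm38.p6) for 8 of the 9 genes, in 12 windows, and were searched on both strands for 2 half-sites in the same orientation. A half-site was AGGTCA, or in its place AGTTCA was accepted, as were GGGTCA and for the same purpose GGTTCA. With a 5-base spacer the pair was found in 32 of 32851 windows of all genes (0.0974%), 31 of 27025 genes in all, and 2 of the 8 genes were among them, *Rarb* and *Cyp26a1*. With a spacer of 1 base it was found in 0.222% of windows and with 2 bases in 0.268%, none of them of the 8 genes. The matches are shown because they lie in front of genes of the pathway itself. They are letters in a window and no measurement of binding. The half-sites are in capitals with flanking bases on both sides, and each sequence is read 5′ to 3′ on the strand of the gene.
*Rarb*, chr14:16575507-16575535, minus strand, with the repeat ending 37 bases upstream of the start site: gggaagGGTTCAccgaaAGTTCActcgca
*Cyp26a1*, chr19:37697770-37697798, plus strand, with the repeat ending 16 bases upstream of the start site: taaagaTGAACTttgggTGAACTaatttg
In *Rarb* the repeat runs in the direction of the gene. In *Cyp26a1* it lies on the opposite strand, where it reads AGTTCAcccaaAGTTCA.

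*Rara*, the most widely expressed of the receptors, had 2 probes. The brighter, A_55_P2095345, had 3.35, 3.50, 3.43 and 3.53 with WT fathers and 3.63, 3.55, 3.62 and 3.53 with HET fathers. The 8 embryos spanned 0.29 log2 units, and the pooled SD of 0.069 was larger than that of 5.81% of all tested probes. Its difference of 0.13 (-0.03 to 0.29) had the smallest p of the 11, an unadjusted limma p of 0.0954. The other probe, A_55_P2095342, ranged from 0.68 in WT father replicate 3 to 1.34 in HET father replicate 3, with a difference of 0.09 (-0.22 to 0.41). That difference was -0.016 without HET father replicate 3. The change in the brighter probe minus that in the other was 0.04 (exact permutation p = 0.8, two-sided, over 70 assignments of the 8 embryos, the smallest possible being 0.0286).

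*Rarb*, which carries the first of the elements above and is a textbook target of retinoic acid, also had 2 probes. The brighter, A_55_P1962154, had 1.32, 1.26, 1.26 and 1.47 with WT fathers and 1.62, 1.50, 1.65 and 1.29 with HET fathers. Of the HET father embryos 3 lay above all 4 WT father embryos, and replicate 4 lay among them. The difference was 0.19 (-0.05 to 0.42), with an unadjusted limma p of 0.103. The dimmer probe, A_55_P2084807, had -1.26, -1.40, -1.38 and -1.68 with WT fathers and -1.33, -1.37, -1.46 and -1.57 with HET fathers, and its group means were both -1.43. The brighter probe's change exceeded the dimmer's by 0.19 (exact permutation p = 0.257, two-sided), which is within the spread between embryos.

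*Rarg*, the receptor expressed in the primitive streak and unsegmented mesoderm, had 3.52, 3.61, 3.54 and 3.95 with WT fathers and 3.95, 3.70, 3.86 and 3.95 with HET fathers. WT father replicate 4 was level with the highest HET father embryos, and the other 3 WT father embryos lay below all of them. The means were 3.66 ± 0.20 and 3.87 ± 0.12 (SD, n = 4 each). The difference was 0.21 (-0.06 to 0.48), with an unadjusted limma p of 0.115, and it was 0.31 without WT father replicate 4.

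*Crabp1* and *Crabp2* encode the cellular binding proteins. CRABP2 is known to pass retinoic acid to the receptors, and CRABP1 to hold it in the cytoplasm. *Crabp1* had 3.64, 3.56, 3.59 and 3.55 with WT fathers and 4.19, 4.05, 3.74 and 3.49 with HET fathers. The WT father embryos lay within 0.09 log2 units of each other, while the HET father embryos held both the highest 3 values and the lowest. The difference of 0.28 (-0.07 to 0.64) was the largest of the 11, at a fold of 1.22 with a 95% interval of 0.953 to 1.55. Its unadjusted limma p was 0.101. Without HET father replicate 4 it was 0.41.

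*Crabp2* had 6.92, 6.76, 6.75 and 6.76 with WT fathers and 6.99, 7.03, 7.11 and 6.55 with HET fathers. As for *Crabp1*, 3 HET father embryos were above all WT father embryos and replicate 4 was below them all. The means were 6.80 ± 0.08 and 6.92 ± 0.25 (SD, n = 4 each), and the difference was 0.12 (-0.18 to 0.43). Without HET father replicate 4 it was 0.25. *Rarb*, *Crabp1* and *Crabp2* were the members at an unadjusted limma p under 0.05 when that embryo was left out, with adjusted p values of 0.739 or more, and the differences were then 0.26, 0.41 and 0.25. In that fit 1905 of all 33093 tested probes were under that p, where 1436 were with all embryos.

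**Figure D3:**
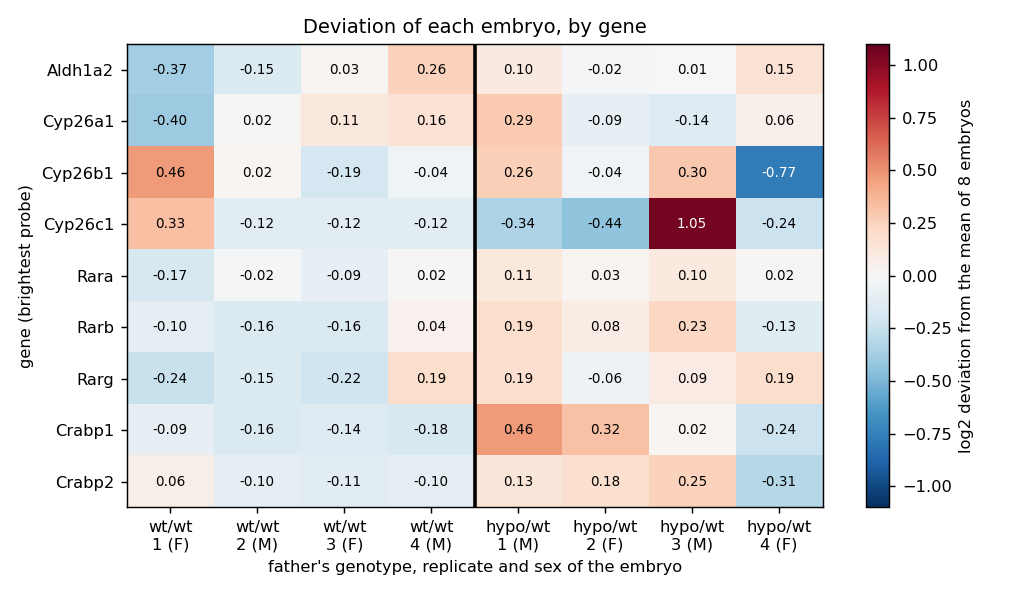
Log2 deviation of each embryo from the mean of all 8, for the brightest probe of each gene. Columns are embryos with their father's genotype, replicate and sex, rows are genes, and red is above and blue below the mean. HET father replicates 1 and 3 are above the mean for 8 of 9 genes, replicate 3 not so with median scaling, and the darkest cells are *Cyp26c1* in HET father replicate 3 and *Cyp26b1* in HET father replicate 4.

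Read by embryo, the members did not all move together. WT father replicate 1 was the lowest of the 8 for 4 genes (*Aldh1a2*, *Cyp26a1*, *Rara* and *Rarg*) and the highest for *Cyp26b1*. HET father replicate 4 was the lowest for *Cyp26b1*, *Crabp1* and *Crabp2* and the highest for *Rarg*. HET father replicate 1 was the highest for *Cyp26a1*, *Rara* and *Crabp1*, and HET father replicate 3 for *Cyp26c1*, *Rarb* and *Crabp2*. The median deviation over the 9 genes was -0.10, -0.12, -0.12 and 0.02 in the WT father embryos and 0.19, -0.02, 0.10 and -0.13 in the HET father embryos, so the groups overlapped. With arrays scaled to their median in place of the 75th percentile, the same medians were -0.53 in WT father replicate 1 and -0.95 in HET father replicate 3, so the place of these 2 embryos depended on the scaling.

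By sign, 9 of the 11 probes, and the brightest probe of 8 of the 9 genes, were higher with HET fathers, against 49.3% of all tested probes. The median difference over the 9 genes was 0.12, and over all tested probes -0.00. These probes share the same 8 arrays and are not independent of each other, and no test was made of the count. With arrays scaled to their median in place of the 75th percentile, 6 of 9 genes were higher, the median over the genes was 0.03 and that over all tested probes -0.10. The median pooled SD within groups was 0.197 for the 11 probes and 0.214 for all tested probes.

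The other genes of the pathway were also uncalled. Of 24 genes for vitamin A uptake, storage and oxidation, 20 were tested and 0 were called, with a median difference of -0.02. Among the steps just before *Aldh1a2*, *Rdh10*, which makes the retinaldehyde, had -0.11, and *Dhrs3*, which turns it back to retinol, had 0.02. The carriers *Rbp4* and *Ttr* had 0.02 and 0.03, and the retinol importer *Stra6* had 0.12. *Rdh12* had the highest value, 0.20.

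*Rdh1*, a retinol dehydrogenase, had the lowest. Its values were -2.02, -2.45, -2.32 and -2.71 with WT fathers and -3.08, -2.95, -3.01 and -2.79 with HET fathers, and the groups did not overlap. The difference was -0.58 ± 0.15 (SE), with an unadjusted limma p of 0.00551 and an adjusted p of 1.00. The difference stayed between -0.69 and -0.46 when any 1 embryo was left out, in the same embryos by which the gene was picked. With arrays scaled to their median it was -0.67, with an unadjusted limma p of 0.0998. Lower values at an unadjusted p under 0.05 were found for 2.49% of all tested probes, and here for 1 of 20 genes. In the same list the groups of *Adh5* did not overlap either. It was higher with HET fathers by 0.13, with an unadjusted limma p of 0.0659. *Rbp2*, not tested and well above background on 3 arrays, was also higher without overlap. Of all tested probes 1.61% were lower and 1.54% higher with HET fathers without overlap.

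Of 19 RXRs, coregulators and other carriers, 18 were tested and 0 were called, with a median of 0.02. *Rxra*, the RXR partner present in most tissues, had -3.51, -3.47, -3.58 and -3.52 with WT fathers and -3.43, -3.35, -3.24 and -3.35 with HET fathers. The groups of this probe did not overlap, and the difference was 0.18 ± 0.07 (SE), with an unadjusted limma p of 0.0323 and an adjusted p of 1.00. That was 1 of 18 genes higher at an unadjusted p under 0.05, where 1.85% of all tested probes were. Groups that did not overlap, with HET fathers higher, were found for 1.54% of all tested probes. The direction of the *Rxra* difference was not stable. A second *Rxra* probe had -0.34, and the first turned to -0.040 with quantile normalisation and -0.079 when the probes of the gene were averaged. *Rxrb* had 0.18 and *Rxrg* 0.24, the highest of the list, though a second *Rxrg* probe had 0.02. The corepressor *Ncor1* had -0.03, and the orphan receptor *Nr6a1* had the lowest value, -0.14.

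Of 31 genes known to respond to retinoic acid, all 31 were tested and 0 were called, with 19 above 0, 12 below 0 and a median of 0.02. *Hoxb1*, an early hindbrain target, had 0.02. *Hoxb5* had 0.01, 0.16, 0.04 and 0.13 with WT fathers and 0.37, 0.23, 0.23 and 0.20 with HET fathers, and the groups did not overlap. Its difference was 0.17 ± 0.07 (SE), with an unadjusted limma p of 0.0443 and an adjusted p of 1.00. That was 1 of 31 genes higher at an unadjusted p under 0.05, where 1.85% of all tested probes were. Of all tested probes 1.54% were higher with HET fathers without overlap. *Olig2*, a motor neuron progenitor gene, had the highest value, 0.34, with 7 of 8 arrays above background and an interval of -1.22 to 1.91. *Egr2*, which marks hindbrain rhombomeres, had the lowest, -0.23. *Fgf8* and *Cdx1*, genes of the tail end of the embryo, had -0.20 and -0.16.

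Of the 31 genes with the 5-base-spaced repeat in their promoter window, 10 were on the array and 7 were tested. None of the 7 was called, and 0 were at an unadjusted limma p under 0.05. Their median was 0.17, where that over all tested probes was -0.00, and the middle value of the 7 is that of the embryonic globin gene *Hbb-y*, at 0.17 with an interval of -1.14 to 1.48. *Rarb* and *Cyp26a1* are also among the 7.

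**Figure D4:**
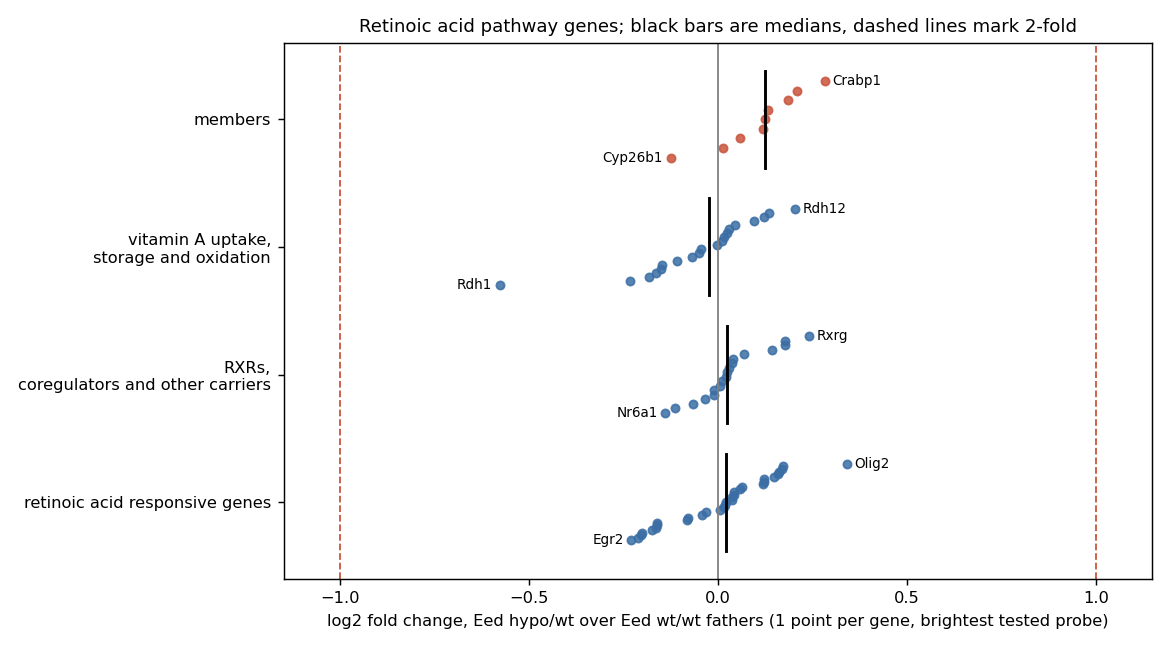
Difference between the father groups for each tested gene of 4 lists, on a log2 axis, with 1 point per gene at its brightest tested probe, black bars at the list medians and dashed lines at 2-fold. The medians are 0.12 for the 9 retinoic acid genes and -0.02, 0.02 and 0.02 for the other lists, and no gene reaches 2-fold.

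Sex was balanced within each slide and could be compared within it. None of the 11 probes was called between males and females, where 0.0332% of all tested probes were, and 0 of 11 had an unadjusted limma p under 0.05, against 3.36%. Males were higher for 10 of 11 probes, against 57.7% of all tested probes, and the median over the 9 genes was 0.15, against 0.03. Within the slides, males were higher for 6 of 11 probes in the WT father group and 10 of 11 in the HET father group. The sign was the same in both for 5. These counts rest on the scaling to the 75th percentile and were not made with median scaling. With median scaling the median deviation of HET father replicate 3, a male, went from 0.10 to -0.95. That of WT father replicate 1, a female, went from -0.10 to -0.53. The smallest unadjusted limma p was 0.0632, for *Rara* A_55_P2095342, which was higher in males by 0.25 (-0.02 to 0.51).

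In the test of whether the father difference depends on the embryo's sex, 0 of 11 probes were called (0% of all tested probes) and 0 at an unadjusted p under 0.05 (2.27%). The smallest p, 0.114 by limma, was for *Cyp26b1*. Male minus female was 0.69 in the HET father group and -0.15 in the WT father group, an interaction of 0.83 with an interval of -0.28 to 1.94. *Cyp26c1* had 0.69 and -0.23. In both genes the HET father values rest on 2 males and 2 females, with replicate 4 low for *Cyp26b1* and replicate 3 high for *Cyp26c1*.

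**Figure D5:**
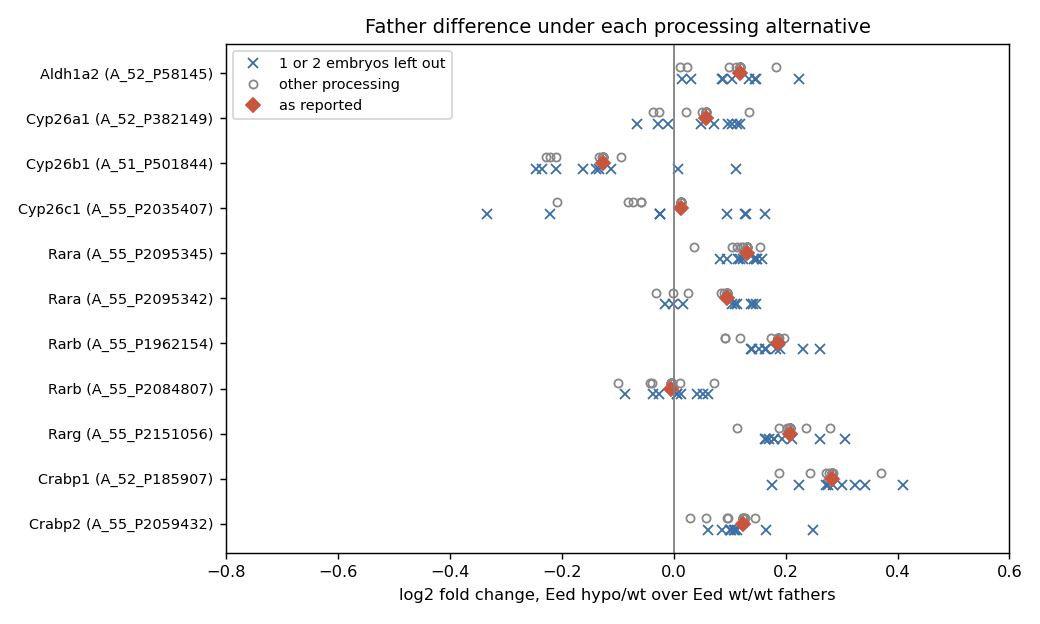
Difference between the father groups for each probe, on a log2 axis, as reported (diamonds), with 1 or 2 embryos left out (crosses) and under other processing (open circles). *Aldh1a2*, the brighter *Rara* and *Rarb* probes, *Rarg*, *Crabp1* and *Crabp2* stay above 0 throughout, and *Cyp26c1* ranges from -0.33 to 0.16.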

How the data were processed

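One-colour Agilent arrays of 8 embryos were analysed, 4 in each father group. The authors' software, Agilent Feature Extraction (version 11.0.1.1), gave each spot an intensity from which background and spatial trends had been removed, and the deposited intensity values had not been scaled between arrays. Here the log2 intensity was centred on the 75th percentile of the array. Control and outlier spots were dropped, repeated spots were averaged, and 33093 probes were tested, those well above background on 4 or more arrays and outside the lowest 20% by mean. Symbols came from RefSeq accessions (27235 of 28685 matched, assembly GRCm38.p6). Groups were compared with limma (version 3.58.1; R 4.3.3; data.table, version 1.17.8), checked on simulated data. A call required both a 2-fold change and a Benjamini-Hochberg adjusted p under 0.01, as in the study, whose methods name no test and no percentile. Python 3.11.15, numpy 2.4.6, pandas 2.3.3 and matplotlib 3.10.9 were used for summaries and plots. The number of arrays limits the precision.

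All 9 members were described, led by their brightest tested probe. From each pathway list, genes at an unadjusted p under 0.05 and the highest and lowest were named, and other genes in the text were picked for their roles. The members and lists were chosen with earlier results of these data known. The alternatives were 2 other scalings, normexp (offset 50) on the median spot signal, the deposited series table, 2 other filters, a replicate or embryo-code block, array weights, other moderation, averaged probes, outlier spots kept, sex in the fit, another threshold, and each embryo left out. Leaving out 2 embryos together was chosen after seeing the data.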

Additional observations from a re-analysis of the deposited data

Results flagged for a closer look

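In groups of 4 embryos, 1 embryo was taken to stand apart when its gap to the nearest of the others, divided by the distance from lowest to highest, was over Dixon's 95% critical value. This was so in 4 of the 24 groups examined, where chance gives about 1 in 20, or 1.2 groups. The groups share the same arrays and are not independent of each other, and no test was made of the count. *Cyp26c1* stood apart in both father groups, with a ratio of 0.992 for WT father replicate 1 (log2 signal -3.52) and 0.864 for HET father replicate 3 (-2.81). These are the 2 arrays with the most probes above background and the highest median log2 intensity. *Crabp2* had a ratio of 0.901 for WT father replicate 1, which at 6.92 was above the other 3 WT father embryos. The median deviation of the 9 genes had a ratio of 0.844 for WT father replicate 4, which at 0.02 was above the other 3. That last value rests on the scaling of the arrays, since with median scaling WT father replicate 1 had -0.53.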

How the results depend on the processing

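None of the 11 probes was called between the father groups under any of the 23 alternatives, with a smallest adjusted p from limma between 0.467 and 1.00, and none of the other pathway genes, the sex comparison or the interaction gave a call under those run for them. At an unadjusted p under 0.05, at most 3 of 11 member probes were found for the father comparison in any alternative (without HET father replicate 4, where 1905 of all 33093 tested probes were), 1 for sex (in 6 alternatives, where 941 to 1978 of all were) and 2 for the interaction (without HET father replicate 2, 1020 of all). The median over the 9 genes stayed between 0.03 and 0.16. *Aldh1a2*, *Rarg*, *Crabp1*, *Crabp2* and the brighter *Rara* and *Rarb* probes kept their sign under all alternatives run.

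Signs turned as follows, and the causes were not tested. *Cyp26a1* was -0.037 with median scaling and -0.025 with normexp. *Cyp26c1* was -0.082 with median scaling, -0.059 with quantile normalization, -0.073 with normexp, -0.058 with a random block for the embryo code and -0.21 with array weights. *Rara* A_55_P2095342 was -0.00036 with median scaling and -0.032 with normexp. *Rarb* A_55_P2084807 was 0.072 with normexp and 0.011 with array weights. *Rxra* was -0.040 with quantile normalization and -0.079 with averaged probes. With 1 embryo left out, *Cyp26a1* ranged from -0.066 to 0.12, *Cyp26b1* from -0.25 to 0.11, *Cyp26c1* from -0.33 to 0.16, *Rara* A_55_P2095342 from -0.016 to 0.15 and *Rarb* A_55_P2084807 from -0.087 to 0.052. Without WT father replicate 1 and HET father replicate 3 together, *Cyp26a1* was -0.010, *Cyp26c1* -0.22, *Rara* A_55_P2095342 -0.00090 and *Rarb* A_55_P2084807 0.062.

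Embryos with the same replicate number did not deviate together (correlations from -0.59 to -0.05). Each such pair was of opposite sex, so this check cannot exclude a pairing. The numbers were treated as names. With replicate number as a block, 0 members were called, and 880 of all tested probes were at an unadjusted p under 0.05 where 1436 were without it. Over the alternatives that number ranged from 407 (median scaling) to 5367 (no filter, on 55681 probes), and that of the other pathway genes from 0 to 5 where it was 3.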
